A study of Mus musculus with 6 samples.

Results

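Mrc1, Cd163, Dab2, P2ry12, Stab1, Folr2, Clec10a and Mgl2 are 8 genes that tissue-resident macrophages use to take up sugars, haemoglobin, folate and cell debris or to sense nucleotides. They were picked by symbol from the 16131 genes of the deposited table, and Mrc1, Dab2 and P2ry12 were chosen for their rise in these same libraries. The values of those 3 genes are therefore given as a description with no test, and tests are given for the other 5. RNA came from wounded skin of C57BL/6 mice on day 7, in animals whose diabetes had been induced with streptozotocin, which destroys the beta cells of the pancreas. There were 3 poly(A) RNA-seq libraries from skin given rFGF4, recombinant fibroblast growth factor 4, at 100 ng/ml in a volume of 10 µl each day, and 3 from skin given 10 µl each day of PBS, the saline vehicle. Diabetes and the wound were shared by both groups, and skin without them was not analysed here. Whether each library is a separate animal is not given in the labels, and the p-values here reflect only library-to-library spread, possibly technical.

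Resident macrophages live in the dermis and clear debris without strong inflammation. They bear lectins and scavenger receptors that bind ligands at the surface and carry them through clathrin-coated pits to lysosomes. Mrc1, Cd163, Folr2 and Clec10a are widely used as markers of such cells and of macrophages exposed to interleukin 4, interleukin 10 or glucocorticoids. Several of the 8 genes are also used by other cells. Mrc1 and Stab1 are known in lymphatic and sinusoidal endothelium, P2ry12 in platelets and microglia, Clec10a and Mgl2 in dermal dendritic cells, and Dab2 in several epithelial and mesenchymal cells.

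Sequence upstream of the gene starts is shown for the 3 genes with the highest fold changes and for Cd163, the 1 further gene that passed the test. The sequences are from RefSeq on GRCm38.p6, 5′ to 3′ on the strand of the gene, and end just before the first annotated start. For Mrc1 that is the GENCODE start, 22 bases before the RefSeq one, and the 22 bases between are not shown. Capitals mark a match to GGAAGT or its reverse complement, a core bound by ETS factors such as the macrophage regulator PU.1, or to CACGTG, the E-box of MiT/TFE factors that regulate lysosomal genes.
Mrc1, chr2:14229164-14229391, plus strand: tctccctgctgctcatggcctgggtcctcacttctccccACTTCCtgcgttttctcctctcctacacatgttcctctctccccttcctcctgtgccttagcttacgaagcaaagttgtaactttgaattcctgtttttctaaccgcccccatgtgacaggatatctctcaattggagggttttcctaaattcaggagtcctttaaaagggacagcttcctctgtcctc
Dab2, chr15:6299539-6299787, plus strand: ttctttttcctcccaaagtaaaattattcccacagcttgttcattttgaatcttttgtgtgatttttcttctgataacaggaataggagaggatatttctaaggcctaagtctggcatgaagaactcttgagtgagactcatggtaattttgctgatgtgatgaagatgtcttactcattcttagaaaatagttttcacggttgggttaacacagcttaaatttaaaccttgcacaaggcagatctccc
P2ry12, chr3:59262986-59263235, minus strand: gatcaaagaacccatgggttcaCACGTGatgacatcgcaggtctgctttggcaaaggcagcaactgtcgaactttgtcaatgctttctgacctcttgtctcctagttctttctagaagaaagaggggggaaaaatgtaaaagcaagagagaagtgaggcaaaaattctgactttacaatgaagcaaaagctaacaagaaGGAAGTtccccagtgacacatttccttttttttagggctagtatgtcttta
Cd163, chr6:124304401-124304650, plus strand: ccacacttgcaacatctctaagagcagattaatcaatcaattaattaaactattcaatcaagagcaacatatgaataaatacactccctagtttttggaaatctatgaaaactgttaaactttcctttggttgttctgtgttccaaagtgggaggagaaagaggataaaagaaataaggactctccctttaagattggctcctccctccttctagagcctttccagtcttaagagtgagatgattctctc

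In the 250 bases upstream, 7 of the 8 genes had entries, with 9 windows in all since Folr2 and Dab2 have more than 1. On both strands GGAAGT was found in 4 of the 9 windows (Mrc1, P2ry12, Mgl2 and 1 window of Folr2), while 19.7% of 32851 mouse promoter windows hold it. CACGTG was found in the P2ry12 window alone (6.02% of all windows), and TGANTCA, the AP-1 site, in the other Folr2 window (6.75% of all). The STAT6-type palindrome TTCNNNNGAA was found in 0 of the 9 windows, against 5.85% of all. No pair of matches in these windows shared bases. A match is a description of these letters only. The principal GENCODE transcript of P2ry12 starts 35404 bases inside the RefSeq start used here. For Dab2 the distance is 86809 bases from the RefSeq start that belongs to the window shown. The principal start of Dab2 lies in its other window, chr15:6386498-6386797, whose sequence is not shown.

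The values behind the results are taken as FPKM, fragments scaled to transcript length and library size. They are per length, but fold changes here still depended on transcript length, so comparisons of level between genes are rough. Fold changes are differences of log2(FPKM + 0.1), rFGF4 minus PBS, and understate the change of low genes. A gene was called where the limma p, adjusted by the Benjamini-Hochberg method over the 14676 genes that reached 1 FPKM in 3 or more libraries, was under 0.05. All 8 genes passed that filter. For gene lists, counts at an unadjusted p under 0.05 are also given, without the share of all tested genes, which was not counted. With the values as deposited that share is at least the 12.1% that limma called in either direction. Such counts are therefore a description and no sign of a change in a list. Limma called 4 of the 8 higher with rFGF4 and 0 lower, against 8.46% and 3.62% of all tested genes. Those 4 are the 3 chosen for their rise plus Cd163, so 1 of the 5 genes not so chosen was called. All 8 fold changes were positive, as were 69.8% of those of all tested genes. Their median was 0.97, and that of the 5 genes not chosen for their rise 0.77, against 0.19 for all genes tested. Centring each library on its own median takes the median of all genes to 0.01, so each fold change is read against that of the typical gene. In 4 of the 8 genes the groups did not overlap, every rFGF4 library lying above every PBS library, which held for 30.9% of all genes tested (the reverse held for 7.36%). These too are the 3 chosen genes plus Cd163, so only 1 of the 5 genes not so chosen was apart, no more than that share. The authors' deposited table has the same 4 genes higher at a q-value under 0.05 and 0 lower, beside 4.80% and 6.98% of the tested genes. In bulk skin, a different number of cells of a type and a different amount of RNA per cell cannot be told apart.

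**Figure D1:**
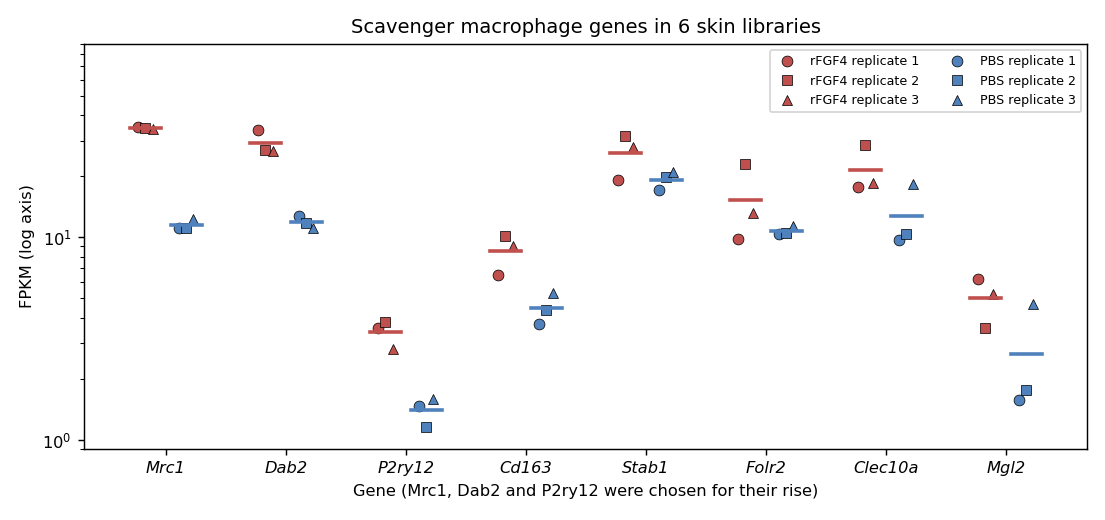
Level of each gene in FPKM on a log axis in the 3 rFGF4 libraries (red) and the 3 PBS libraries (blue), with 1 symbol per replicate number and a line at the group mean. Mrc1 lies near 35 FPKM with rFGF4 and near 11 with PBS, whereas Stab1, Folr2, Clec10a and Mgl2 overlap between groups.

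Mrc1 encodes the mannose receptor CD206, a C-type lectin that takes up glycoproteins ending in mannose, fucose or N-acetylglucosamine and collagen fragments. The gene lies on chromosome 2 (GRCm38, chr2:14229392-14332057, plus strand, 30 exons in the principal transcript of 5374 bases). It stood at 35.1, 34.6 and 34.4 FPKM in rFGF4 replicates 1 to 3 and at 11.1, 11.1 and 12.3 FPKM in PBS replicates 1 to 3. The groups were far apart and each was narrow, at 34.7 ± 0.358 FPKM with rFGF4 and 11.5 ± 0.675 FPKM with PBS (SD, n = 3 each), a ratio of 3.02. Of all tested genes 0.143% had a log2 fold change at least as high, which is no test since Mrc1 was chosen for its rise. The log2 fold change of Mrc1 was 1.59 with a standard error of 0.101. No single library set this value, which lay between 1.57 and 1.64 with each library left out in turn. Mir511, the microRNA gene hosted by Mrc1, shares 79 bases with it and was not analysed here.

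Dab2 encodes Disabled-2, an adaptor that links receptors with an NPXY tail to clathrin and the AP-2 complex. Its level was 34.0, 26.9 and 26.5 FPKM in rFGF4 replicates 1 to 3 and 12.6, 11.8 and 11.1 FPKM in PBS replicates 1 to 3. The lowest rFGF4 library was above the highest PBS library by more than the whole range of either group. Means were 29.1 ± 4.21 FPKM with rFGF4 and 11.8 ± 0.787 FPKM with PBS (SD, n = 3 each), with a log2 fold change of 1.28 (SE 0.136). Of tested genes 0.436% had a fold change at least as high, which is no test since Dab2 was chosen for its rise. The gene lies at chr15:6299788-6440712 (GRCm38, plus strand) and is overlapped by the antisense transcript Gm16311 over 6670 bases. None of the 75-base stretches of its principal transcript occurs in an exon of another annotated gene.

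P2ry12 encodes a receptor for ADP on G proteins of the Gi type, known from platelet aggregation and from the process movement of microglia. It was the lowest of the 8 genes in both groups, at 3.56, 3.79 and 2.79 FPKM in rFGF4 replicates 1 to 3 and 1.47, 1.15 and 1.59 FPKM in PBS replicates 1 to 3. The groups did not overlap, with means of 3.38 ± 0.525 FPKM with rFGF4 and 1.40 ± 0.227 FPKM with PBS (SD, n = 3 each). The log2 fold change was 1.21 (SE 0.198). Of tested genes 0.606% reached it, which is no test since P2ry12 was chosen for its rise. P2ry12 (chr3:59216272-59262871, minus strand, GRCm38) lies wholly within Med12l on the other strand. The libraries mark strand, but whether the counting used it is not stated. Reads from the introns of Med12l could thus have been given to P2ry12, which was not tested. Med12l itself is not among the genes listed by the authors. None of its 2270 stretches of 75 bases lies in an exon of another annotated gene.

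Cd163 encodes the scavenger receptor for haemoglobin bound to haptoglobin, and was the 1 gene of the 5 not chosen for their rise that limma called. It stood at 6.52, 10.2 and 9.09 FPKM in rFGF4 replicates 1 to 3 and at 3.71, 4.36 and 5.29 FPKM in PBS replicates 1 to 3. Every rFGF4 library was above every PBS library, though rFGF4 replicate 1 and PBS replicate 3 came close. Cd163 rose to 8.59 ± 1.87 FPKM with rFGF4, against 4.45 ± 0.794 FPKM with PBS (SD, n = 3 each), a log2 fold change of 0.92 (SE 0.208, limma adjusted p = 0.0385). In the authors' deposited table its q-value is 0.0185. The call is near the threshold: it ended with the libraries centred on their medians (0.74, limma adjusted p = 0.0903), with quantile normalization (0.75, 0.086), with the length trend removed (0.58, 0.255), relative to the mean of 20 pan-macrophage genes (0.79, 0.404), with the replicate number as a block (0.92, 0.0678) and without each of 5 libraries in turn (limma adjusted p 0.0688 to 0.121). It held without rFGF4 replicate 1 (limma adjusted p = 0.0482).

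Stab1 encodes stabilin-1, a large receptor that clears oxidised lipoprotein and the matrix protein SPARC. It had 19.1, 31.5 and 27.9 FPKM in rFGF4 replicates 1 to 3 and 17.0, 19.8 and 20.9 FPKM in PBS replicates 1 to 3. The rFGF4 replicate 1 value lay within the PBS range, so the groups overlapped. Means were 26.2 ± 6.35 FPKM with rFGF4 and 19.2 ± 2.02 FPKM with PBS (SD, n = 3 each), and the log2 fold change of 0.42 (SE 0.202) was not called (limma adjusted p = 0.206). Stab1 was the most abundant of the 8 genes with PBS and the third with rFGF4. It shares 38 of the 7925 75-base stretches of its transcript with Nt5dc2, a neighbour on the other strand.

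Folr2 encodes folate receptor beta, which is anchored in the membrane by a lipid and binds folate. Its levels were 9.75, 23.0 and 13.1 FPKM in rFGF4 replicates 1 to 3 and 10.3, 10.5 and 11.3 FPKM in PBS replicates 1 to 3. The rFGF4 replicate 1 value was below all PBS libraries and the other rFGF4 libraries were above them, so the direction was not shared by the 3 libraries. The means, 15.3 ± 6.88 FPKM with rFGF4 and 10.7 ± 0.536 FPKM with PBS (SD, n = 3 each), did not differ beyond the spread of the rFGF4 libraries, with a log2 fold change of 0.42 and SE of 0.294 (limma adjusted p = 0.377). The fold change was 0.08 without rFGF4 replicate 2. Of the 75-base stretches of the Folr2 transcript, 51.3% also lie in exons of the antisense gene Gm10602, listed at 1.06, 2.39 and 1.24 FPKM in rFGF4 replicates 1 to 3 and 0.815, 1.11 and 1.15 FPKM in PBS replicates 1 to 3. The 2 genes rank the rFGF4 libraries in the same order, and the level of Folr2 is uncertain to that extent.

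Clec10a and Mgl2 encode the macrophage galactose-type lectins MGL1 and MGL2, mouse C-type lectins that bind galactose and N-acetylgalactosamine. They are neighbours on chromosome 11 (GRCm38, plus strand), Mgl2 at chr11:70130329-70137550 and Clec10a at chr11:70156197-70170834. Their principal transcripts were 85.5% identical over 1308 aligned bases and shared 145 stretches of 75 bases, 10.2% of those of Clec10a and 9.59% of those of Mgl2, so reads could be split between them. Clec10a had 17.7, 28.4 and 18.5 FPKM in rFGF4 replicates 1 to 3 and 9.69, 10.3 and 18.3 FPKM in PBS replicates 1 to 3. PBS replicate 3 stood with the rFGF4 libraries, and the log2 fold change of 0.77 (SE 0.293) was not called (limma adjusted p = 0.124). Mgl2 had 6.23, 3.56 and 5.21 FPKM in rFGF4 replicates 1 to 3 and 1.56, 1.75 and 4.65 FPKM in PBS replicates 1 to 3. PBS replicate 3 was again high, and its log2 fold change of 1.02 (SE 0.427) was not called (limma adjusted p = 0.153). Without that library the fold change of Mgl2 was 1.50 (limma adjusted p = 0.0599) and that of Clec10a 1.06 (0.0706). Summing the FPKM of the pair gave a log2 fold change of 0.84 (limma adjusted p = 0.0988). The sum largely evens out reads split between them, but not reads that were dropped or counted for both. How shared reads were counted is not stated.

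The order of the levels differed between the groups, which is a description since 3 of the 8 genes were chosen for their rise. With rFGF4 it was Mrc1, Dab2, Stab1, Clec10a, Folr2, Cd163, Mgl2 and P2ry12 from high to low, and with PBS Stab1, Clec10a, Dab2, Mrc1, Folr2, Cd163, Mgl2 and P2ry12. With rFGF4 the ranges of neighbours were apart between Mrc1 and Dab2 and between Cd163 and Mgl2, and with PBS only between Folr2 and Cd163. The 8 genes summed to 132, 161.9 and 137.6 FPKM in rFGF4 replicates 1 to 3 and to 67.5, 70.7 and 85.5 FPKM in PBS replicates 1 to 3. Mrc1 made up 26.6%, 21.4% and 25.0% of that sum in the rFGF4 libraries and 16.4%, 15.7% and 14.3% in the PBS libraries. The share of Stab1 was 14.5%, 19.4% and 20.3% in the rFGF4 libraries and 25.2%, 27.9% and 24.5% in the PBS libraries. The 3 chosen genes summed to 72.6, 65.3 and 63.7 FPKM in the rFGF4 libraries and to 25.2, 24.0 and 24.9 FPKM in the PBS libraries. The total sum and the shares of Mrc1 and Stab1 therefore follow in part from that choice. The 5 genes not chosen for their rise summed to 59.3, 96.5 and 73.9 FPKM in the rFGF4 libraries and to 42.3, 46.7 and 60.5 FPKM in the PBS libraries, where the lowest rFGF4 sum lay below the highest PBS sum.

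Replicates also differed among themselves. Of the rFGF4 libraries, replicate 2 was the highest in Cd163, P2ry12, Stab1, Folr2 and Clec10a, and replicate 1 the lowest in Cd163, Stab1, Folr2 and Clec10a. Mrc1, Dab2 and Mgl2 were highest in rFGF4 replicate 1. Of the PBS libraries, replicate 3 was the highest in 7 of the 8 genes and the lowest in Dab2.

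General macrophage genes had a mean log2 level of 5.28, 5.85 and 5.35 in rFGF4 replicates 1 to 3 and 5.12, 5.17 and 5.82 in PBS replicates 1 to 3. The highest and lowest library of each group were the same as in Cd163, Stab1, Folr2 and Clec10a. In Mrc1, Dab2, P2ry12 and Mgl2 they were not all the same. The 20 pan-macrophage genes, among them Csf1r, the receptor for the macrophage growth factor CSF1, Adgre1 (F4/80) and Cd68, were all tested, and none was at 0 in any library. Limma called 0 of the 20, with 2 higher and 1 lower at an unadjusted p under 0.05, and the authors' deposited table has 0 higher and 1 lower at a q-value under 0.05. Their median log2 fold change was 0.25. They summed to between 1719 and 3084 FPKM in rFGF4 libraries and between 1492 and 3002 FPKM in PBS libraries. Csf1r stood at 33.7 ± 7.20 FPKM with rFGF4 and 23.4 ± 5.48 FPKM with PBS (SD, n = 3 each; log2 fold change 0.52, limma adjusted p = 0.153). Tyrobp, a signalling adaptor of myeloid receptors, stood at 66.5 ± 24.1 FPKM with rFGF4 and 123 ± 53.5 FPKM with PBS (log2 fold change -0.86, limma adjusted p = 0.152).

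Set against the mean log2 level of those 20 genes in the same library, 2 of the 5 genes not chosen for their rise, Cd163 and Clec10a, had groups that did not overlap, higher with rFGF4, while 3.35% of all tested genes did. The 3 chosen genes were also apart on this scale, which is a description. By limma neither Cd163 (adjusted p = 0.404) nor Clec10a (0.685) was called on this scale, where 0.279% of all tested genes were called higher and 3.24% lower. The mean itself ranged from 5.28 to 5.85 in the rFGF4 libraries and from 5.12 to 5.82 in the PBS libraries. Subtracting it adds that spread to genes that do not follow macrophage genes. The shares over all genes are therefore no like background for macrophage genes, and the limma p-values on this scale also draw on that spread. Mrc1 lay at -0.14, -0.73 and -0.25 log2 units from the pan-macrophage mean in rFGF4 replicates 1 to 3 and at -1.64, -1.69 and -2.19 in PBS replicates 1 to 3, a difference of 1.46. Cd163 lay at -2.55, -2.49 and -2.16 in the rFGF4 libraries and at -3.19, -3.01 and -3.38 in the PBS libraries, a difference of 0.79. Clec10a, which overlapped between groups as deposited, lay at -1.13, -1.02 and -1.14 in the rFGF4 libraries and at -1.83, -1.79 and -1.61 in the PBS libraries, a difference of 0.65. On this relative scale the difference was 1.16 for Dab2, 1.08 for P2ry12, 0.90 for Mgl2 and 0.29 for Stab1 and for Folr2, and the median of all tested genes was 0.07. The pan-macrophage genes have shorter transcripts, with a median of 1387 bases against 3374 for the 8 genes, and the part of length in these differences was not tested.

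**Figure D2:**
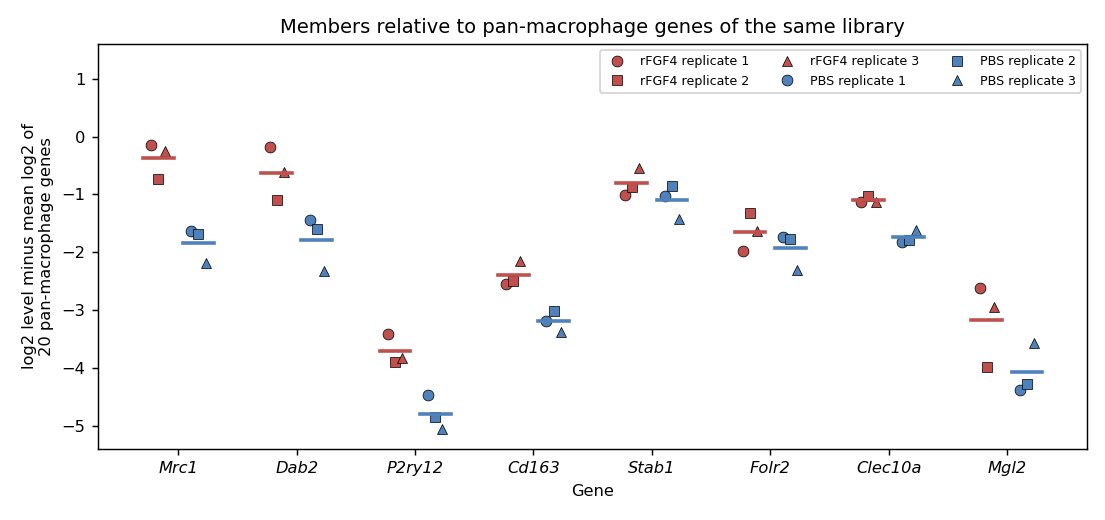
Log2 level of each gene minus the mean log2 level of 20 pan-macrophage genes in the same library, for the rFGF4 libraries (red) and the PBS libraries (blue), with a line at the group mean. Mrc1, Dab2, P2ry12, Cd163 and Clec10a are separated between the groups on this scale, whereas Stab1, Folr2 and Mgl2 overlap.

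Fold changes in these libraries depended on transcript length, so each gene was set beside genes of its own length, within a factor of 1.25. Mrc1, with 5374 bases, belongs to a class with a median log2 fold change of 0.36 in which 16.2% of genes were called higher. Dab2 (4663 bases) and Cd163 (4404 bases) belong to classes with medians of 0.33 each, with 14.2% and 13.2% called higher. P2ry12, with 2344 bases, belongs to a class with a median of 0.17 and 5.66% called higher. Mrc1 stood 1.23, P2ry12 1.04, Dab2 0.95 and Cd163 0.60 log2 units above the median of its class. Stab1, the longest at 7999 bases, matched its class median of 0.42 to within 0.01 on the log2 scale. The 3 short genes lay in classes with almost no shift: Mgl2 stood 0.97, Clec10a 0.75 and Folr2 0.50 above medians of 0.05, 0.02 and -0.08.

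With the length trend removed from each library, limma called 77 genes higher, 0.543% of the 14191 genes with a known length, and 229 lower, 1.61%. The fold changes of the chosen 3 were then 1.20 for Mrc1, 1.01 for P2ry12 and 0.93 for Dab2, given as a description. None of the 5 others was called: Cd163 was at 0.58 (limma adjusted p = 0.255), Mgl2 at 0.96 (0.353), Clec10a at 0.74 (0.261), Folr2 at 0.50 (0.373) and Stab1 at -0.03 (0.96). The median of the 8 genes was 0.83 after this removal.

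**Figure D3:**
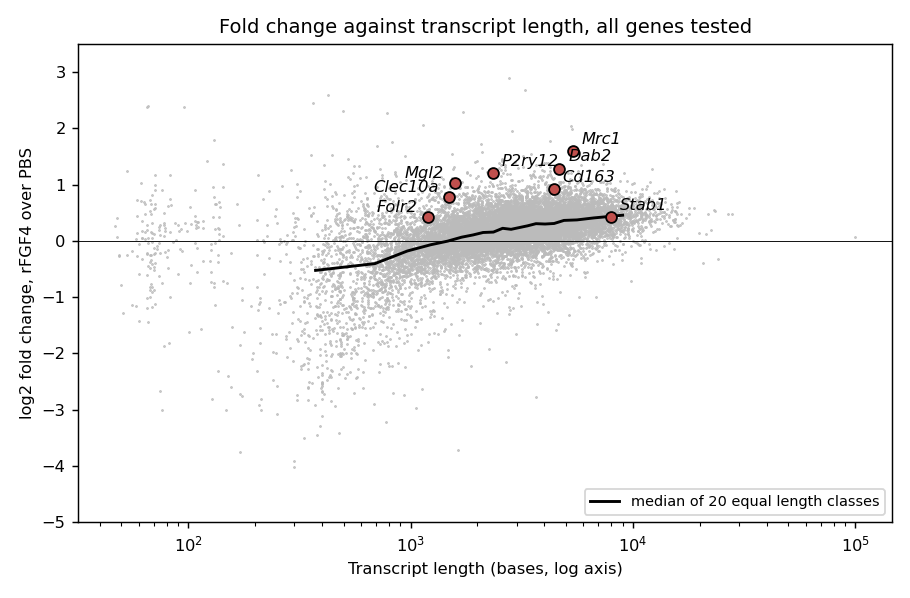
Log2 fold change of rFGF4 over PBS against transcript length in bases (log axis) for 14191 tested genes (grey), with the 8 genes in red and the median of 20 equal length classes as a black line. Stab1 lies near the line and the 7 other genes above it.

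**Figure D4:**
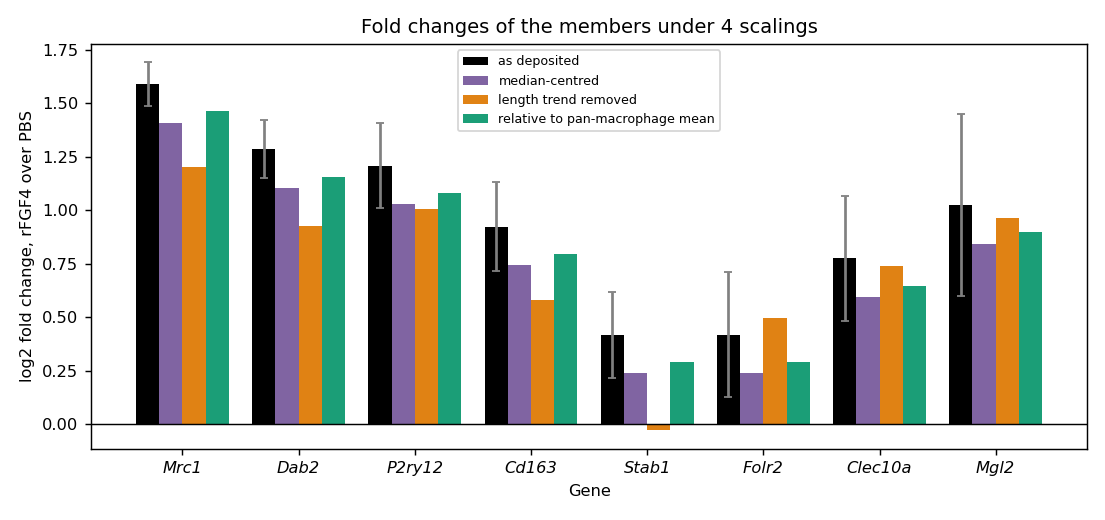
Log2 fold change of each gene, rFGF4 over PBS, as deposited (black, with standard error), with libraries centred on their medians, with the length trend removed and relative to the pan-macrophage mean. Mrc1 lies between 1.20 and 1.59 on the 4 scales, and Stab1 is at 0.42 as deposited and at -0.03 without the length trend.

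Genes around the 8 were read from the same fit across all genes. Of 18 other genes of resident macrophages 15 were tested, with a median log2 fold change of 0.32. Limma called 4 higher and 1 lower, beside 8.46% and 3.62% of all tested genes. Lyve1, a hyaluronan receptor of perivascular macrophages and lymphatic vessels, rose to 6.22, 5.84 and 6.03 FPKM in rFGF4 replicates 1 to 3, against 3.55, 3.11 and 2.99 FPKM in PBS replicates 1 to 3, a log2 fold change of 0.89 with SE 0.125 (limma adjusted p = 0.0146). The groups were well separated. Igf1, a growth factor made by repair macrophages and by fibroblasts, rose to 16.6, 13.5 and 12.1 FPKM in the rFGF4 libraries, against 5.76, 8.19 and 6.30 FPKM in the PBS libraries (a change of 1.05 with SE 0.18, limma adjusted p = 0.0213). Selenop, a secreted carrier of selenium, rose to 273.5 ± 40.1 FPKM with rFGF4, against 133 ± 30.1 FPKM with PBS (SD, n = 3 each; 1.06, limma adjusted p = 0.0315).

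Retnla, a secreted protein that interleukin 4 induces in macrophages, went the other way. It fell to 3.46, 3.05 and 6.42 FPKM in rFGF4 replicates 1 to 3, against 9.38, 9.78 and 8.20 FPKM in PBS replicates 1 to 3, a log2 fold change of -1.14 with SE 0.275 (limma adjusted p = 0.045). Other resident genes were not called, among them F13a1 at 28.1 ± 14.4 FPKM with rFGF4 and 15.5 ± 2.96 FPKM with PBS (SD, n = 3 each; limma adjusted p = 0.181) and Cbr2 at 29.4 ± 12.9 FPKM with rFGF4 and 24.3 ± 3.99 FPKM with PBS (0.679). With the length trend removed 0 genes of this list were called by limma, with 5 higher and 0 lower at an unadjusted p under 0.05. As deposited, the number called was 1, 2 and 3 without rFGF4 replicates 1, 2 and 3 and 1, 1 and 0 without PBS replicates 1, 2 and 3.

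Of 14 other scavenger receptors 10 were tested, all with positive fold changes and with a median of 0.62. Limma called 3 higher and 0 lower, beside 8.46% and 3.62% of all tested genes. Cd36, a receptor for oxidised lipids and fatty acids, rose to 38.2 ± 1.71 FPKM with rFGF4, against 25.2 ± 2.53 FPKM with PBS (log2 fold change 0.60, limma adjusted p = 0.0295). Colec12, a collectin of endothelial and stromal cells, rose by 0.79 (limma adjusted p = 0.0324), and Lrp1, a large receptor for lipoproteins and protease complexes that binds adaptors through NPXY motifs, by 0.65 (0.0379). Msr1, the class A scavenger receptor of macrophages, stood at 7.12 ± 1.22 FPKM with rFGF4 and 4.52 ± 1.03 FPKM with PBS (SD, n = 3 each). Its groups did not overlap, and it was not called (limma adjusted p = 0.0891). Groups were apart, higher with rFGF4, in 6 of the 10 tested genes, beside 30.9% of all tested genes. This list has long transcripts (median 3584.5 bases), and with the length trend removed limma called 0 of it, with 2 higher and 0 lower at an unadjusted p under 0.05. As deposited, 1 was called without rFGF4 replicate 1 and 0 without each other library in turn.

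Partners of Dab2 in clathrin-mediated endocytosis had a median of 0.34. Limma called 6 of 19 tested higher and 0 lower, beside 8.46% and 3.62% of all tested genes. Among the 6 called were Eps15, a scaffold of coated pits (log2 fold change 0.70, limma adjusted p = 0.0179), and Cltc, the clathrin heavy chain (0.69, 0.0201). Itsn1, a scaffold (0.69, 0.0248), and Picalm, an adaptor that binds clathrin and lipids (0.70, 0.0282), were also called. Cltc stood at 42.7 ± 3.17 FPKM with rFGF4 and 26.5 ± 1.33 FPKM with PBS (SD, n = 3 each). These transcripts are long, with a median of 4646 bases. With the length trend removed the median was 0.04 and limma called 0 of the 19, with 1 higher and 0 lower at an unadjusted p under 0.05. As deposited, 2, 3 and 1 were called without rFGF4 replicates 1, 2 and 3, and 0 without any PBS library.

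Family relatives of the 8 genes were called higher in 1 of 14 tested and lower in 0, beside 8.46% and 3.62% of all tested genes, with a median of 0.35. The share is no higher than that background. That gene was P2ry6, a receptor for UDP on phagocytes, at 9.97 ± 0.0589 FPKM with rFGF4 and 5.77 ± 1.21 FPKM with PBS (SD, n = 3 each; log2 fold change 0.80, limma adjusted p = 0.0314), and the call ended with each library left out in turn. P2ry13, the ADP receptor most like P2ry12, stood at 1.25, 1.97 and 1.45 FPKM in rFGF4 replicates 1 to 3 and 0.957, 0.935 and 1.13 FPKM in PBS replicates 1 to 3 (0.56, limma adjusted p = 0.153). Mrc2, the collagen receptor most like Mrc1, stood at 31.3 ± 7.16 FPKM with rFGF4 and 25.4 ± 5.46 FPKM with PBS (0.30, limma adjusted p = 0.413).

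Haem and iron handling, the path downstream of Cd163, had a median of 0.18 and 0 of 12 tested genes called by limma in either direction. At an unadjusted p under 0.05, 2 were higher and 0 lower, with no share over all genes to set beside them. The authors' deposited table has 0 at a q-value under 0.05. Ncoa4, which delivers ferritin to lysosomes, stood at 10.2 ± 2.01 FPKM with rFGF4 and 6.59 ± 0.904 FPKM with PBS (SD, n = 3 each), with a log2 fold change of 0.62 that was not called (limma adjusted p = 0.0656). Slco2b1, an organic anion transporter, had a fold change of 0.43 (limma adjusted p = 0.109), and neither gene overlapped between groups. Groups were apart, higher with rFGF4, in 3 of the 12 tested genes, no more than the 30.9% of all tested genes. Hmox1, which breaks down haem, stood at 144, 270.2 and 180.2 FPKM in rFGF4 replicates 1 to 3 and 118, 124 and 201 FPKM in PBS replicates 1 to 3 (limma adjusted p = 0.39). Slc40a1, which exports iron, stood at 4.89 ± 0.263 FPKM with rFGF4 and 4.35 ± 1.15 FPKM with PBS (SD, n = 3 each; limma adjusted p = 0.548).

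Of 15 tested genes of the interleukin 4 and 13 response limma called 1 higher, Il13ra1, and 1 lower, Retnla, near the 8.46% and 3.62% of all tested genes, with a median of 0.46. Il13ra1, a chain of the receptor shared by both cytokines, rose to 31.4, 25.3 and 36.7 FPKM in rFGF4 replicates 1 to 3, against 17.7, 17.5 and 17.0 FPKM in PBS replicates 1 to 3 (log2 fold change 0.82, limma adjusted p = 0.0256). Il4ra, the other chain, had a fold change of 0.77 that missed the threshold (limma adjusted p = 0.0503), and so did Klf4, a transcription factor, at 0.66 (0.0509). Arg1 stood at 78.4 ± 31.7 FPKM with rFGF4 and 57.3 ± 24.1 FPKM with PBS, and Chil3 at 6.06 ± 0.667 FPKM with rFGF4 and 10.1 ± 8.74 FPKM with PBS (SD, n = 3 each; limma adjusted p = 0.443 and 0.656). With the length trend removed limma called 0 of the 15, with 2 higher at an unadjusted p under 0.05. As deposited, 0, 1 and 1 were called without rFGF4 replicates 1, 2 and 3, and 0 without any PBS library.

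**Figure D5:**
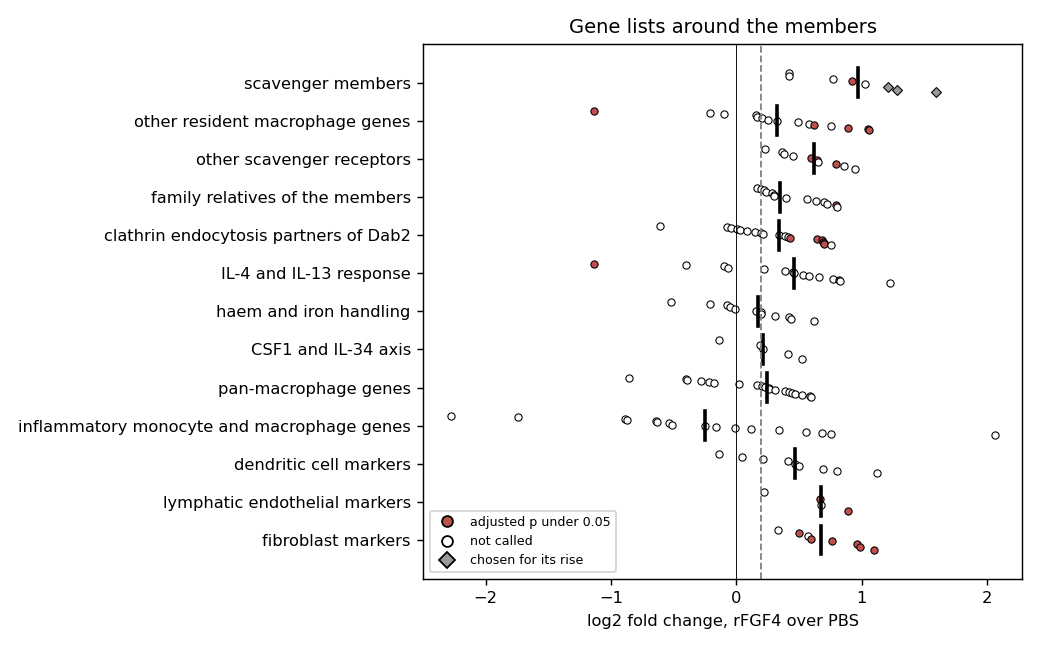
Log2 fold change of rFGF4 over PBS for each tested gene of 13 lists, with genes called by limma in red, genes not called in white, the 3 genes chosen for their rise as grey diamonds, the list median as a black bar and the median of all genes (0.19) as a dashed line. The median of the 8 genes, 0.97, includes the 3 chosen ones, the 5 others have a median of 0.77, and the fibroblast and lymphatic lists lie at 0.68 and 0.67.

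Other cell types that can make these transcripts were read in the same way, beside 8.46% of all tested genes called higher and 3.62% lower. Of the fibroblast markers 6 of 8 were called higher, with a median of 0.68, and their sum was 4018 to 4184 FPKM in rFGF4 libraries and 2258 to 2835 FPKM in PBS libraries. Of 4 tested lymphatic endothelial markers 2 were called higher, Lyve1 and Pdpn, with a median of 0.67 and sums of 57.0 to 63.0 FPKM in rFGF4 libraries and 34.4 to 43.5 FPKM in PBS libraries. Pdpn, a surface protein of lymphatic endothelium and activated fibroblasts, rose to 38.8 ± 6.66 FPKM with rFGF4, against 24.1 ± 0.21 FPKM with PBS (SD, n = 3 each; limma adjusted p = 0.035). Both lists had 0 genes called by limma with the length trend removed (3 of the fibroblast and 2 of the lymphatic markers were higher at an unadjusted p under 0.05). Fibroblast calls numbered 3 without rFGF4 replicate 2, 1 without PBS replicate 2 and 0 without each other library, and lymphatic calls 1, 2 and 1 without rFGF4 replicates 1, 2 and 3 and 1, 0 and 0 without PBS replicates 1, 2 and 3. Blood endothelial markers had a median of 0.39 and 0 of 8 called by limma, with 1 higher and 0 lower at an unadjusted p under 0.05, and sums of 91.0 to 178 FPKM in rFGF4 libraries and 88.3 to 124 FPKM in PBS libraries. Their part in the levels of Mrc1, Dab2 and Stab1 was not tested.

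Dendritic cell markers, which bear on Clec10a and Mgl2, had a median of 0.47 and 0 of 9 called by limma, with 2 higher and 0 lower at an unadjusted p under 0.05, and summed to 73.6 to 101 FPKM in rFGF4 libraries and 59.3 to 75.8 FPKM in PBS libraries. For P2ry12, 2 of 8 platelet markers were tested, Ppbp and Itga2b (median 0.49), and 0 were called by limma, with 0 at an unadjusted p under 0.05. The 3 listed platelet markers summed to 4.16 to 10.9 FPKM in rFGF4 libraries and 3.70 to 6.47 FPKM in PBS libraries. Microglia markers had a median of 0.38 and 0 of 4 tested genes called by limma, with 2 higher and 0 lower at an unadjusted p under 0.05, and sums of 48.3 to 72.3 FPKM in rFGF4 libraries and 49.5 to 56.2 FPKM in PBS libraries. The part of these cells in the levels of the 3 genes was not tested.

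Across the 6 libraries, the genes with a mean of at least 5 FPKM whose log2 level was most like that of Mrc1 were Mfsd14a, Tgfbr2, Pum2, Sptan1 and Cttnbp2nl, with Pearson's r of 0.997 to 0.998 among 8396 genes. The points share libraries, and their spread is mainly the gap between the groups. Tgfbr2, a receptor chain for transforming growth factor beta, stood between 39.1 and 41.5 FPKM in the rFGF4 libraries and between 20.2 and 21.8 FPKM in the PBS libraries. The genes most like Cd163 were Sh3gl1, Rpl17-ps8, BC005537, Cables2 and Pdgfc, with r of 0.993 to 0.997. Rpl17-ps8 is a pseudogene whose reads can come from its parent gene. In the annotation of the deposited table, Mrc1, Clec10a and Mgl2 share the term carbohydrate binding, held by 0.794% of listed genes, and Mrc1, Cd163 and Stab1 the term endocytosis, held by 0.942%.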

How the data were processed

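RNA of 6 skin libraries was measured by poly(A)-selected, strand-marked (dUTP) paired-end sequencing, per the labels' protocols. Per the submitters' processing notes the tools were StringTie, HISAT2, edgeR and fastp. They name GRCh38, a human build, whereas the symbols are mouse ones, and which reference was used was not settled. The 6 value columns deposited by the authors are taken as FPKM. Their header gives no unit, so this rests on the values and on StringTie in those notes. The authors' deposited table also gives a fold (ratio of group means), its log2, and for each gene a p-value with its q-value. Listed genes exceed 1 FPKM in at least 1 library (smallest maximum 1.0001). Library sums were 304717 to 311668 FPKM with rFGF4 and 310256 to 319807 FPKM with PBS. Whole reads could not be recovered (16.2% to 22.4% of each library's low values were within 0.05 of a whole number of reads at the best step, and 10% would by chance), so depth is unknown and precision rests on the spread between libraries.

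Values were tested on log2(FPKM + 0.1) with limma 3.58.1 (trend, robust, two-sided, R 4.3.3), with group as the only term. An exact permutation test of 3 against 3 cannot go below p = 0.1 and was not used. Transcript lengths and gene positions are those of GENCODE M21 (GRCm38), sequences those of RefSeq on GRCm38.p6. The length trend was removed per library by loess on log2 length (span 0.3, degree 1). Alternatives were pseudocounts of 1 and 0.01, no filter, a filter of 5 FPKM, median centring, quantile normalization, levels relative to the mean of 20 pan-macrophage genes, the replicate number as a block and each library left out, the last also with the length trend removed (added after the data were seen). The 8 genes and the 20 context lists were chosen with earlier results of these data known. Named genes were drawn from the up to 4 per list with the smallest unadjusted p. Not all of those are named, and some lists have none named. The 5 genes most like Mrc1 and the 5 most like Cd163 are also named. Cd68, Adgre1, F13a1, Cbr2, Msr1, Hmox1, Slc40a1, Arg1, Chil3, Mrc2 and Csf1 were added outside that rule. For 1 called resident macrophage gene the result is not reported here. Scripts were tested on simulated data. The labels give no batch.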

Additional observations from a re-analysis of the deposited data

How the results depend on the processing

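Depth is unknown, so the spread between 3 libraries limits every statement, and low genes such as P2ry12 and Mgl2 cannot be given a counting error. Over all genes, limma called 1773 (1241 higher, 532 lower). It called 755 with libraries centred on their medians (138 higher, 617 lower), 749 with quantile normalization (235 higher, 514 lower), 306 with the length trend removed (77 higher, 229 lower), 516 relative to the pan-macrophage mean (41 higher, 475 lower), 233 with the replicate number as a block, 134 to 890 with each library left out in turn, and, with the trend removed as well, 188, 214 and 174 without rFGF4 replicates 1, 2 and 3 and 76, 83 and 103 without PBS replicates 1, 2 and 3. Why the balance of calls turned was not tested. Of the 8 scavenger genes 4 were called as deposited, 2 with the replicate block, 2 relative to the pan-macrophage mean (a count added after the data were seen), 2 without each PBS library, 3 without each rFGF4 library, and 1 to 2 with the trend removed and a library left out. The other alternatives gave 3 or 4. These counts include the 3 genes chosen for their rise, whose calls are no test. Of the 5 others only Cd163 was called in any alternative, and where its call ended only chosen genes were counted. Samples with the same replicate number correlated in their deviations at 0.183, -0.067 and -0.125. Samples with unlike numbers were not compared, so these values cannot say whether the numbers pair the samples. The fold change of Stab1 was negative in 4 of 21 alternatives, down to -0.18, and those of the 7 others were positive in all that were run. For the context lists, libraries centred on their medians left limma with 1 resident macrophage gene, 0 scavenger receptors, 1 clathrin partner, 0 interleukin 4 and 13 genes, 0 relatives, 2 fibroblast and 1 lymphatic markers called, against 5, 3, 6, 2, 1, 6 and 2 as deposited. The replicate block left 1 fibroblast marker and 0 in the other 6 lists.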

Other observations

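Inflammatory monocyte and macrophage genes had a median log2 fold change of -0.25 over 17 tested genes. Limma called 0, with 3 higher and 1 lower at an unadjusted p under 0.05, and the authors' deposited table has 1 higher and 1 lower at a q-value under 0.05. S100a8, an alarmin of neutrophils and monocytes, stood at 43.9, 105 and 45.0 FPKM in rFGF4 replicates 1 to 3 and at 123, 316 and 612 FPKM in PBS replicates 1 to 3 (log2 fold change -2.28, limma adjusted p = 0.0567). Il6, a cytokine, stood at 2.94, 2.04 and 6.62 FPKM in the rFGF4 libraries and at 1.39, 0.265 and 0.995 FPKM in the PBS libraries (2.07, limma adjusted p = 0.073). The costimulatory genes Cd80 (0.76, limma adjusted p = 0.0873) and Cd86 (0.68, 0.0866) had groups that did not overlap and were not called. Of the 17 genes 3 were apart and higher with rFGF4 and 1 apart and lower, beside 30.9% and 7.36% of all tested genes.

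Of the CSF1 and interleukin 34 axis, which keeps macrophages alive, 5 genes were tested (median 0.21) and limma called 0, with 1 higher and 0 lower at an unadjusted p under 0.05. Il34 stood at 6.24 ± 0.206 FPKM with rFGF4 and 5.50 ± 0.786 FPKM with PBS, and Csf1 at 17.1 ± 4.18 FPKM with rFGF4 and 15.3 ± 6.69 FPKM with PBS (SD, n = 3 each). Limma also called 0 genes among 8 keratinocyte, 6 neutrophil, 6 mast cell, 4 T cell and 8 skeletal muscle markers, of which 1 neutrophil gene and 1 muscle gene were lower at an unadjusted p under 0.05 and 0 were higher. Their medians were -0.20, -0.18, -0.16, 0.19 and -0.46 in that order.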
